A study of Mus musculus with 3 samples.

Results

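Histone genes were examined in messenger RNA of 1 myeloid population sorted from mouse bone marrow. A gene was a member when its symbol began with Hist and a digit, or with H1f, H2af or H3f. By that rule 24 of the 11419 genes listed in the files were members. They were 15 replication-dependent genes of the histone clusters, 8 replacement variants and 1 pseudogene, H3f3a-ps1. The cells were positive for CD11b, F4/80 and CD169, negative for CX3CR1, and were taken from the tibiae and femurs of mice of the C57BL/6 inbred strain. No other genotype, treatment, age or control population was given, so all 3 libraries formed 1 group. The design text gave n = 3 without saying whether each library was its own mouse, so the p-values speak of library-to-library spread alone, and that spread may be technical.

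Histones wrap DNA into nucleosomes. The core histones H2A, H2B, H3 and H4 form the particle, and the linker histone H1 binds where the DNA enters and leaves it. Replication-dependent histone genes lie in clusters and are transcribed mainly in S phase, when new DNA needs packaging. Their mRNAs usually end in a conserved stem-loop, bound by the protein SLBP, in place of a poly(A) tail. Replacement variants lie outside the clusters, mostly have introns and poly(A) tails, and are made through the cell cycle and in resting cells. Bone marrow holds many dividing blood precursors beside cells that have left the cycle.

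The libraries had 5150020, 40149274 and 37604930 assigned reads in replicates 1, 2 and 3. Of the defining gate genes, Itgam (CD11b) and Adgre1 (F4/80) were above 10 reads per 1000000 assigned reads (CPM). Siglec1 (CD169) averaged 2.87 CPM and Cx3cr1 0.141 CPM, both below 10 CPM. Macrophage markers summed to between 206 and 238 CPM, or 0.0206% to 0.0238% of the reads. Of these 10 markers 4 were above 10 CPM (Vcam1, Csf1r, Cd68 and C1qa), 3 below, 2 not called and 1 not tested. Neutrophil precursor markers took between 17.7% and 21.4% of the reads, with 10 of 10 above 10 CPM. The labels call these cells macrophages, and the sizes of these sums go against that name, although some macrophage markers were present. In such bulk RNA, fewer cells of a type and less RNA per cell cannot be told apart.

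The stem-loop was looked for in the annotated transcripts of GENCODE M21 (GRCm38, the same assembly as mm10), because it separates the main ways in which a histone mRNA ends. The search took a stem of 6 base pairs whose first strand reads GG, then 3 pyrimidines, then T, around a loop of 4 bases that begins with T. It read the sense strand of the annotated transcripts. Only 68 of 21901 protein-coding genes held a match, or 0.310%, of which 47 fit the histone naming rule. Among the listed members, 11 of 15 cluster genes and 1 of 8 replacement variants, H2afx, held one. The 5 different sequences are shown 5′ to 3′ in DNA letters, with the stem in capitals and the loop in lower case.

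Hist1h1c, Hist1h1d, Hist1h1e, Hist1h2ac, Hist1h2be, Hist1h2bg and Hist3h2a: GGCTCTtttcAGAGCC

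Hist1h2bb and Hist1h3e: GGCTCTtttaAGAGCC

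Hist1h4d: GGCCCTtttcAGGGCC

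Hist1h4i: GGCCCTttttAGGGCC

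H2afx: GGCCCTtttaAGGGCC

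The linker, H2A, H2B and H3 genes of the clusters with a match thus shared 1 stem with either of 2 loops, while both H4 genes and H2afx carried the stem with more G and C. Hist1h1b, Hist1h2ak, Hist1h2bc and Hist2h2be had no match in any annotated transcript, which says only that these letters were not there.

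Most cluster genes had low CPM in these mRNA libraries, and all replacement variants were well above 10 CPM. How mRNA was selected is not given, and cluster mRNAs usually lack a poly(A) tail. These levels are therefore those of the libraries, and amounts in the cells were not tested. Each gene was set against 10 CPM by limma on log2(CPM + 1), with p-values given Benjamini-Hochberg adjustment over the 11123 genes with at least 10 reads. All 24 members had at least 10 reads. Of all genes tested, 58.8% were above 10 CPM and 28.3% below. Among the members 9 were above and 13 below at an adjusted p under 0.05, with 2 not called. The cluster genes had 1 above, Hist1h1c, and 12 below. The replacement variants had 8 of 8 above, and the pseudogene was below. The cluster genes not called were Hist1h2bc (limma adjusted p = 0.086) and Hist1h4i (limma adjusted p = 0.31). Because long genes collect more reads, the fit was also run on CPM per kb of annotated exon against 10 CPM per kb, where 26.0% of genes were above and 62.8% below. On that scale 2 cluster genes were above and 11 below, and the replacement variants again had 8 above. Hist1h4i was then called above (limma adjusted p = 0.00124), while the calls of Hist1h2ak (limma adjusted p = 0.144) and H3f3a-ps1 (limma adjusted p = 0.211) were lost.

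**Figure D1:**
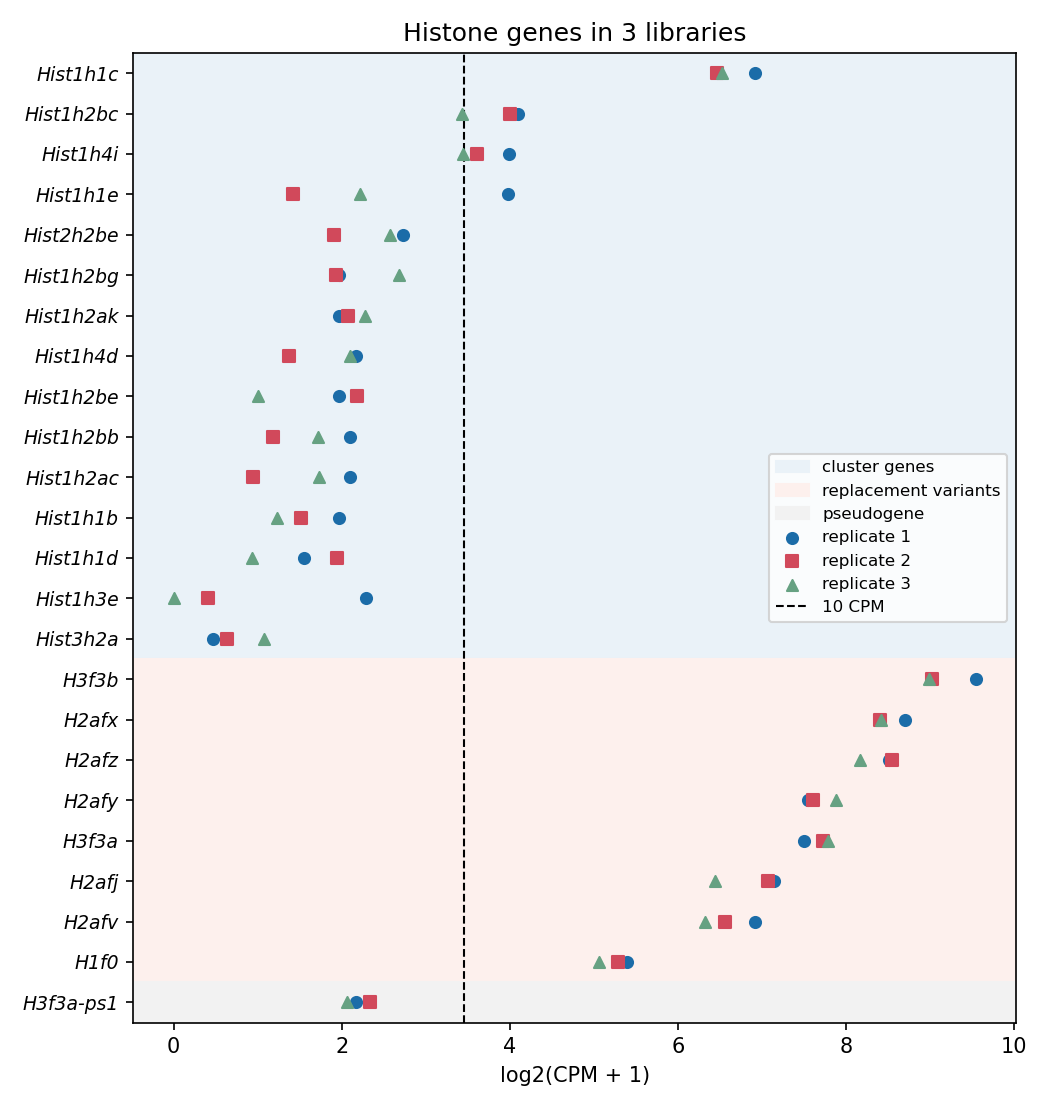
Level of each of the 24 histone genes in the 3 libraries, as log2(CPM + 1), grouped into cluster genes, replacement variants and the pseudogene, with the level of 10 CPM marked. Hist1h1c and the 8 replacement variants lie above the mark, and 12 cluster genes were called below it.

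The classes were then compared per library. All 15 cluster genes together had 199, 137 and 141 CPM in replicates 1, 2 and 3, against 2195, 1900 and 1788 CPM for the 8 replacement variants. The replacement sum was 11.0, 13.9 and 12.7 times that of the cluster genes, so the order of the classes was alike in the 3 libraries. Summed per kb of exon, the ratio was 6.54, 8.05 and 6.91. As a share of assigned reads this was 0.0159 ± 0.0035% for the cluster genes and 0.196 ± 0.021% for the replacement variants (SD, n = 3). Per kb of exon, the median cluster gene was at 4.65, 1.40 and 1.90 CPM per kb, against 75.2, 66.8 and 55.6 CPM per kb for the median replacement variant. The difference of class medians was -3.75, -4.81 and -4.27 on the log2(CPM per kb + 1) scale, with a mean of -4.28 ± 0.53 (SD, n = 3). By coding length in place of exon length it was -5.69. With H2afx, which carries a stem-loop, counted among the cluster genes, these held 0.0524% of reads, against 0.160% for the other replacement variants. Over all listed genes with a length, the median was 4.36 CPM per kb. Since the classes were defined by name and compared as sets of chosen members, no p is given for these sums and medians. They describe reads in the libraries, and the part of mRNA selection in the gap between the classes was not tested.

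**Figure D2:**
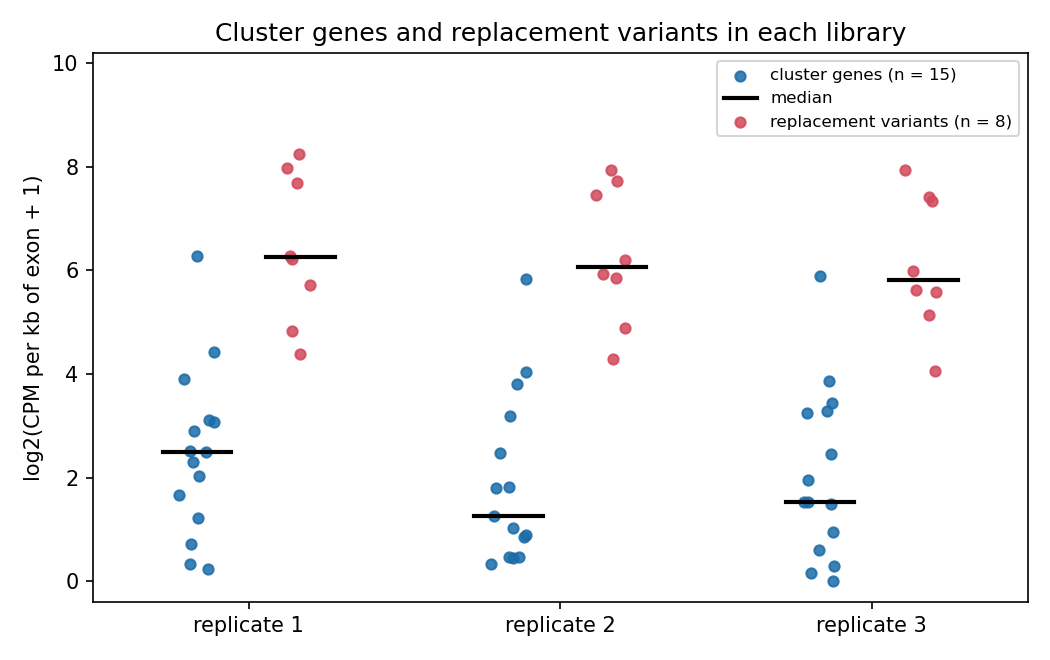
Level of each listed histone gene on the log2(CPM per kb + 1) scale, cluster genes beside replacement variants, in each library, with class medians. The cluster medians lie between 1.40 and 4.65 CPM per kb and the replacement medians between 55.6 and 75.2 CPM per kb, with Hist1h1c inside the replacement range.

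The classes overlapped through few cluster genes. Hist1h1c exceeded H1f0, the lowest replacement variant per kb, in 3 of 3 libraries, and Hist1h4i did so in replicate 1 alone. Per kb of exon, Hist1h1c also exceeded H2afy in 3 of 3 libraries, H2afj and H2afv in 2 of 3 each, and H3f3a in 1 of 3. The other 13 cluster genes stayed below every replacement variant in each library. Shares by family cover listed genes alone, and 52 of the 67 annotated cluster genes were not listed. Replacement variants made up 98.7%, 98.6% and 97.9% of the listed H2A CPM per kb in replicates 1, 2 and 3. For H3, with 1 cluster gene listed, the replacement share was 98.5%, 99.8% and 100% of the listed CPM per kb. The H1 family had the opposite make-up, with a replacement share of 18.3%, 23.7% and 20.2%. This rested mainly on Hist1h1c, at 63.7 of the 70.2 CPM per kb of the listed H1 cluster genes on average. Cluster genes listed numbered 4 for H1, 3 for H2A and 1 for H3. No replacement variant of H2B or H4 was among the members.

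H3.3, the replacement form of H3 that is deposited outside replication, is encoded by 2 genes with the same protein product. H3f3b (chr11:116021912-116027962, minus strand, GRCm38) was at 745, 518 and 509 CPM. All 3 libraries were far above 10 CPM, with a log2 level over it of 5.73 (SE 0.11, limma adjusted p = 8.09e-22). H3f3a (chr1:180800832-180813943, minus strand) was at 180, 212 and 219 CPM (log2 level 4.21 over 10 CPM, SE 0.11, limma adjusted p = 1.26e-19). Per kb, H3f3b exceeded H3f3a by 1.75 ± 0.46 on the log2 scale, in 3 of 3 libraries (SD, n = 3). This is the first of 7 within-library pairs compared per kb, and for each pair the exact two-sided sign-flip p was 0.25, before and after adjustment over the 7, the smallest that 3 libraries allow.

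Among the H2A variants, H2afx and H2afz had the most RNA per kb, and their order depended on the length used. H2afx encodes H2A.X, which is phosphorylated around DNA double-strand breaks. H2afx (chr9:44334694-44336077, plus strand) had 417, 338 and 341 CPM, or 264 ± 32.5 CPM per kb (log2 level 5.05 over 10 CPM, SE 0.11, limma adjusted p = 2.46e-21). H2afz (chr3:137864487-137866922, plus strand) had 365, 372 and 287 CPM, or 192 ± 26.6 CPM per kb (log2 level 4.95 over 10 CPM, SE 0.11, limma adjusted p = 5.24e-21). It encodes H2A.Z, a variant enriched at promoters. H2afv, the second H2A.Z gene (chr11:6427229-6444443, minus strand), had 120, 93.3 and 79.3 CPM. Per kb, H2afz exceeded H2afv by 1.70 ± 0.20 on the log2 scale in 3 of 3 libraries (SD, n = 3), or by 2.43 on the longest transcript of each. The difference of H2afx minus H2afz was 0.46 ± 0.21 by exon length, positive in 3 of 3 libraries. By coding length it was -0.06 ± 0.21, positive in 2 of 3 libraries, and by the longest transcript -0.27 ± 0.21, positive in 0 of 3. These data thus give no order of H2afx and H2afz. H3f3b was the highest of all members by coding length, at 1447 ± 328 CPM per kb.

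The remaining replacement variants, H2afj, H2afy and H1f0, were also above 10 CPM. H2afj (chr6:136808244-136810074, plus strand), which encodes the mammalian variant H2A.J, was at 140, 134 and 86.2 CPM. H2afy (chr13:56073619-56136361, minus strand), the gene of macroH2A1, whose large non-histone domain is linked to silent chromatin, was at 186, 195 and 234 CPM. Replicate 3 was lowest for H2afj and highest for H2afy. H1f0 (chr15:79028450-79030504, plus strand), which encodes the linker histone H1.0 that accumulates in differentiated, non-dividing cells, had 41.0, 38.0 and 32.3 CPM. Its log2 level over 10 CPM was 1.79 (SE 0.15, limma adjusted p = 2.88e-10). Per kb, H2afj averaged 65.6 ± 16.2, H2afv 59.8 ± 12.8, H3f3a 58.1 ± 6.0, H2afy 30.1 ± 3.8 and H1f0 18.1 ± 2.1 CPM per kb (SD, n = 3). By this exon length H2afj, H2afv and H3f3a, neighbours in that order, differed by less than the larger of the SDs of each pair. By coding length H3f3a was highest of them, at 499 ± 51.2 CPM per kb. H2afj was then at 308 ± 75.9 and H2afv at 254 ± 54.4 CPM per kb, so their order depended on the length used.

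Hist1h1c was the exception among the cluster genes. It encodes the linker histone H1.2 and lies on chromosome 13 (chr13:23738808-23740367, plus strand, 1.56 kb of exon, GRCm38). Its level was 120, 87.0 and 91.2 CPM, from 618, 3494 and 3430 reads, and each library lay above 10 CPM. The log2 level over 10 CPM was 3.18 (SE 0.13, limma adjusted p = 2.87e-16). This gene alone held 60.2%, 63.7% and 64.6% of all cluster gene reads in replicates 1, 2 and 3. Per kb it averaged 63.7 ± 11.5 (SD, n = 3) by exon length, between H2afj and H2afv. By coding length it averaged 156 ± 28.2 CPM per kb, below every replacement variant but H1f0. Hist1h1c exceeded H1f0 by 1.81 ± 0.19 on the log2 scale per kb of exon, in 3 of 3 libraries. By coding length that difference was 1.29 ± 0.19, also in 3 of 3.

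The other linker histone genes were far lower. Hist1h1e, the H1.4 gene (chr13:23620629-23622558, minus strand), was at 14.8, 1.67 and 3.67 CPM, from 76, 67 and 138 reads. Replicate 1 thus stood above 10 CPM and the others below it, and the call below 10 CPM (limma adjusted p = 0.0169) did not hold in edgeR (adjusted p = 0.172) or DESeq2 (adjusted p = 0.242) on the recovered reads. Without replicate 2 its limma adjusted p was 0.548 and without replicate 3 it was 0.202. Hist1h1b, the H1.5 gene, was at 2.91, 1.87 and 1.36 CPM, and Hist1h1d, the H1.3 gene, at 1.94, 2.86 and 0.904 CPM. Both were below 10 CPM in each library. Hist1h1c exceeded Hist1h1e by 4.76 ± 1.35 on the log2 scale per kb, in 3 of 3 libraries (SD, n = 3), which came to 5.48 without replicate 1 and 4.14 without replicate 2.

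Cluster genes of the core histones were led by Hist1h2bc and Hist1h4i. Hist1h2bc, an H2B gene (chr13:23684199-23692908, plus strand), was at 16.1, 15.1 and 9.81 CPM, and Hist1h4i, an H4 gene (chr13:22040636-22041362, minus strand), at 15.0, 11.2 and 9.92 CPM. Both straddled 10 CPM over the libraries. Without replicate 3, Hist1h2bc was called above 10 CPM (limma adjusted p = 0.0286), as it was in edgeR (adjusted p = 0.0487) but not in DESeq2 (adjusted p = 0.0806). Per kb, Hist1h4i averaged 16.6 ± 3.6 and Hist1h2bc 11.8 ± 2.9 CPM per kb (SD, n = 3). The second listed H4 gene, Hist1h4d, was at 3.50, 1.59 and 3.27 CPM, and Hist1h4i exceeded it by 2.82 ± 0.61 on the log2 scale per kb. Hist1h2bc exceeded Hist2h2be, an H2B gene of the chromosome 3 cluster at 5.63, 2.74 and 4.95 CPM, by 2.84 ± 0.75 on the same scale, and both differences were positive in 3 of 3 libraries. By coding length they were 2.17 for the H4 pair and 1.65 for the H2B pair. Without replicate 2, the call of Hist2h2be below 10 CPM was lost (limma adjusted p = 0.0641).

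The remaining H2A, H2B and H3 cluster genes were low. Hist1h2bg had 2.91, 2.81 and 5.42 CPM, Hist1h2bb 3.30, 1.27 and 2.29 CPM, and Hist1h2be 2.91, 3.54 and 1.01 CPM, all of them H2B genes. Of the H2A genes, Hist1h2ak was at 2.91, 3.21 and 3.86 CPM, Hist1h2ac at 3.30, 0.922 and 2.31 CPM, and Hist3h2a on chromosome 11 at 0.388, 0.548 and 1.12 CPM. Each of these was below 10 CPM in every library, and each was called below in limma, edgeR and DESeq2. Hist1h3e, the only listed H3 gene of the clusters, was at 3.88, 0.324 and 0 CPM, from 20, 13 and 0 reads. A count of 0 in replicate 3 allows up to 3 reads, or 0.0798 CPM, counting error only. Its call below 10 CPM held in limma (adjusted p = 3.63e-06) and DESeq2 (adjusted p = 0.00624) and was lost in edgeR (adjusted p = 0.0817).

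Near-identical copies and overlapping genes limit how far single histone genes can be told apart. Of the 50-base stretches of their annotated exons, 73.4% of Hist1h3e, 57.0% of Hist1h2ak, 49.7% of Hist1h2bg and 40.1% of Hist1h2bb also occurred in another annotated gene. Either strand counted, so genes that overlap a member at the same place are included beside copies elsewhere. For Hist1h1c the share was 8.54%, and for Hist1h1b and Hist2h2be it was 0%. Among the replacement variants it was 35.4% for H2afz and 27.1% for H3f3a, against 9.66% for H2afx, 6.86% for H3f3b and 0% for H2afv, so it differs within the pairs of these genes compared above. Hist1h1e and Hist1h2be overlap on the same strand, so reads there cannot be assigned to 1 of them. H2afj and H2afy overlap listed genes on the opposite strand, which cannot be told apart where the counting did not use strand. H3f3a and H2afx overlap opposite-strand genes that were not listed, among them Gm17275 and Gm44335, the most frequent sharers of each. The pseudogene H3f3a-ps1 (chrX:101824515-101824924, plus strand) was at 3.50, 4.06 and 3.16 CPM, with 54.3% of its stretches shared, H3f3a among the sharers. How such reads were counted is not given in the sources used here.

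Listed and other annotated cluster genes differed in how far the annotation continues past the stem-loop. GENCODE M21 holds 67 protein-coding cluster genes, of which 15 were listed and 52 were not. On chromosome 13, 13 were listed and 41 were not, the listed genes lying within 1.99 Mb (21753435 to 23747241). On chromosome 3, 1 was listed and 9 were not. On chromosome 11, 1 was listed and 1 was not, and the 1 gene on chromosome 6 was not listed. Of the listed genes, 10 of the 11 with a stem-loop had at least 100 annotated bases after it, against 13 of 35 among those not listed. The median was 840 bases in the listed genes and 46 bases in those not listed. Their longest annotated transcript had a median of 1156 bases in the listed genes and 504 bases in those not listed. A poly(A) signal, AATAAA or ATTAAA in the final 60 bases, ended a transcript in 5 of 15 listed genes and 12 of 52 not listed. Hist1h1c has 840 bases after its stem-loop and H2afx has 822, both ending in such a signal, whereas Hist1h2bb has 23. The bounds of 100 and 60 bases were chosen with these values in view, and annotated length is no measure of the RNA in these cells, so no test is given. The gene filter behind the list, and how mRNA was selected in library making, are not given in the sources used here, and their part was not tested.

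**Figure D3:**
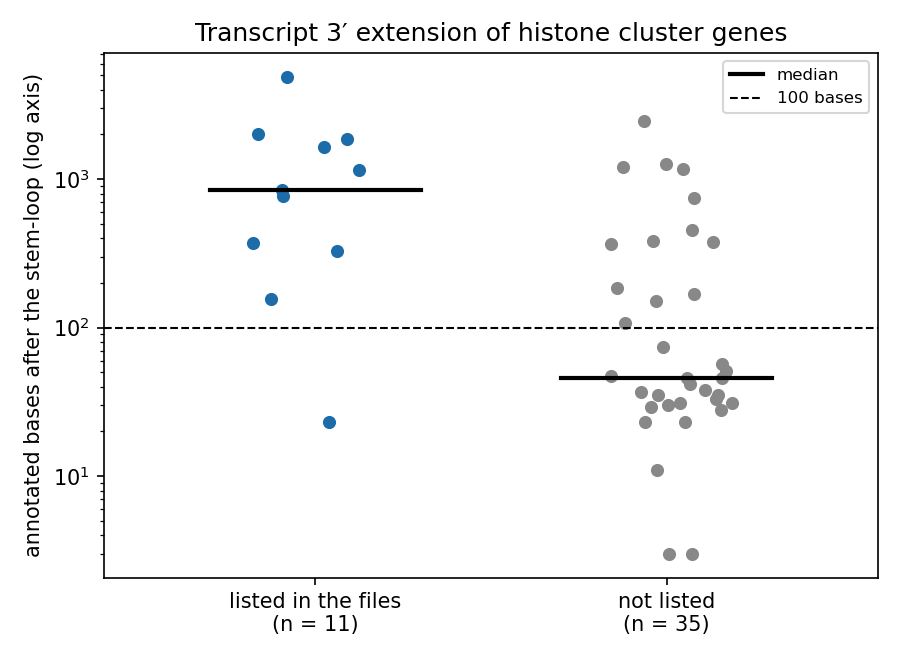
Annotated bases after the stem-loop, on a log axis, for cluster genes with a stem-loop that were listed in the files and for those that were not, with medians. The listed genes have a median of 840 bases and the others 46 bases.

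Promoters of the members were read as the 250 bases before the start in RefSeq (GRCm38.p6), which matched 20 of 24 members, 13 of them cluster genes and 7 replacement variants. Short motifs known from histone promoters were searched on both strands in 27025 promoters of equal length, each motif counted on its own. The CCAAT box was in 12 of 13 cluster genes and 5 of 7 replacement variants, against 34.5% of all promoters. The H1 box, AAACACA, was in the 4 linker genes of the cluster and in H3f3a, against 6.22% of all promoters. The octamer, ATTTGCAT, which binds Oct-1 at H2B promoters, was in 5 cluster genes, Hist1h2ac, Hist1h2bb, Hist1h2be, Hist1h2bg and Hist3h2a, and in H3f3b, against 1.61% of all. Members were counted over every start they had, whereas the 27025 were counted by the first start alone. By the first start the octamer was in 4 cluster genes, and the counts of the other motifs were the same. TATAAA was in 8 of 13 cluster genes and 1 of 7 replacement variants, against 13.0% of all. The 4 linker genes with the H1 box spanned from 0.256 to 63.7 CPM per kb of exon, so genes that share the motif differed widely in level. By coding length the span was narrower, from 2.87 to 156 CPM per kb, with Hist1h1d lowest and Hist1h1c highest by either length. A match is a description of the sequence and not a bound site. The promoter of Hist1h1c (chr13:23738557-23738806, plus strand, GRCm38.p6) is printed because that gene departs from its class, with the H1 box and the CCAAT box in capitals.

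Hist1h1c promoter: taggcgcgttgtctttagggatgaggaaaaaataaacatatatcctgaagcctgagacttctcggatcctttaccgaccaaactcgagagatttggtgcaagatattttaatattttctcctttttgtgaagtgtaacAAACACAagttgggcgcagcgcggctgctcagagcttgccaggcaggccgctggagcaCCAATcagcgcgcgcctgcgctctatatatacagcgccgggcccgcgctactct

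Hist1h2ac and Hist1h2bc lie head to head, with 250 bases between their annotated starts, and so share that stretch. Their levels were 0.878 ± 0.482 and 11.8 ± 2.9 CPM per kb (SD, n = 3), so adjacent genes on opposite strands also differed.

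The spread between libraries was larger for the cluster genes than for the replacement variants. The median coefficient of variation was 39.8% in the cluster genes and 13.2% in the replacement variants, against 20.6% over all genes tested. The cluster genes also had fewer reads, and the part of counting error in this gap was not tested. Replicate 1 was the highest library for 10 of 15 cluster genes and for 5 of 8 replacement variants, as it was for 32.4% of the 11259 listed genes with any reads. For Hist1h1e the 95% Poisson interval of replicate 1 did not overlap those of replicates 2 and 3. Rn7sk, Scarna2 and Snora31 are small RNAs known to lack a poly(A) tail, chosen after their values were seen. Rn7sk was at 16.9, 5.11 and 0.186 CPM, Scarna2 at 7.96, 0.996 and 1.04 CPM, and Snora31 at 4.08, 1.67 and 0 CPM. All 3 were highest in replicate 1, but the choice was made with these values in view, so this counts as no evidence. Erythroid markers summed to 1054, 606 and 603 CPM, highest in the same library. The macrophage markers summed to 238, 206 and 235 CPM. The part of these in the histone values of replicate 1 was not tested.

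**Figure D4:**
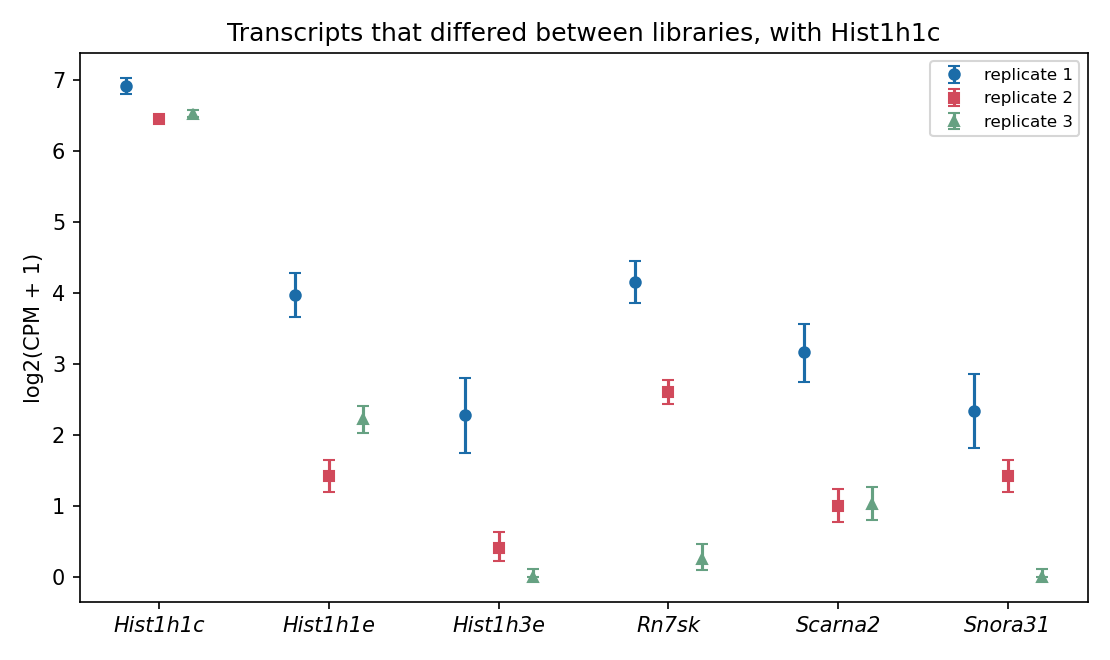
CPM of Hist1h1c, Hist1h1e, Hist1h3e and of 3 small RNAs outside the histone genes in each library, as log2(CPM + 1), with 95% Poisson intervals, whose upper end is 3 reads where there were 0. Hist1h1e, Hist1h3e and the small RNAs are highest in replicate 1, while Hist1h1c differs less, at 120, 87.0 and 91.2 CPM. The small RNAs were chosen after their values were seen.

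Genes that transcribe, process and deposit histones were mostly above 10 CPM. The 5 lists held 56 listed genes, of which 47 were above and 2 below, against 58.8% and 28.3% of all genes tested. Of 14 genes chosen for processing and decay of histone mRNA, 11 were listed in the files. Of these 11, 9 were above and 2 were not called. The latter were Lsm11 (11.2 CPM) and Lsm1 (12.2 CPM). Those above included Sympk (136 CPM), Upf1 (96.3 CPM), Cpsf3 (79.9 CPM) and Slbp, which binds the stem-loop (77.8 CPM). Among transcription genes 7 of 8 were above, led by Cdk2 (109 CPM) and Yy1 (103 CPM), and 1 was not called, Npat (12.3 CPM). Without replicate 2, 4 of them were above 10 CPM, and 3 were above when set against 20 CPM. Of the replication-coupled chaperones 9 of 10 were above, with Rbbp4 (211 CPM), Tonsl (150 CPM), Mcm2 (120 CPM) and Asf1b (107 CPM), while Ipo4 was below at 1.44 CPM. Of the replacement variant chaperones 11 of 14 were above, with Hjurp (351 CPM), Ssrp1 (233 CPM), Anp32e (129 CPM) and Ubn1 (104 CPM), and Srcap was below at 6.57 CPM (limma adjusted p = 0.0372). The Srcap call was lost without replicate 2 (limma adjusted p = 0.224) or replicate 3 (limma adjusted p = 0.148), with no filter on low values (limma adjusted p = 0.0527), in edgeR (adjusted p = 0.0561) and in DESeq2 (adjusted p = 0.0722). In S phase, 14 of 16 were above and 2 were not called, with Mcm5 at 247 CPM, Rrm2 at 216 CPM, Rrm1 at 199 CPM and Mcm7 at 169 CPM. Of 4 histone variants chosen outside the naming rule 1 was listed, Cenpa, the centromeric H3 variant, at 120, 99.5 and 76.5 CPM. These lists were chosen with earlier results known, so their counts are descriptions. Against 10 CPM per kb, 27 of the 56 were above and 26 below, beside 26.0% and 62.8% of all genes tested. By list, the counts above and below were 5 and 5 of 11 for processing and 2 and 5 of 8 for transcription. They were 4 and 6 of 10 for the replication-coupled chaperones, 6 and 7 of 14 for the replacement chaperones and 11 and 4 of 16 for S phase. The transcription counts were thus near the shares of all genes tested. The median was 8.58 CPM per kb for processing, 6.34 CPM per kb for transcription, 7.09 CPM per kb for the replication-coupled chaperones, 9.94 CPM per kb for the replacement chaperones and 19.97 CPM per kb for S phase, against 4.36 CPM per kb over all listed genes.

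**Figure D5:**
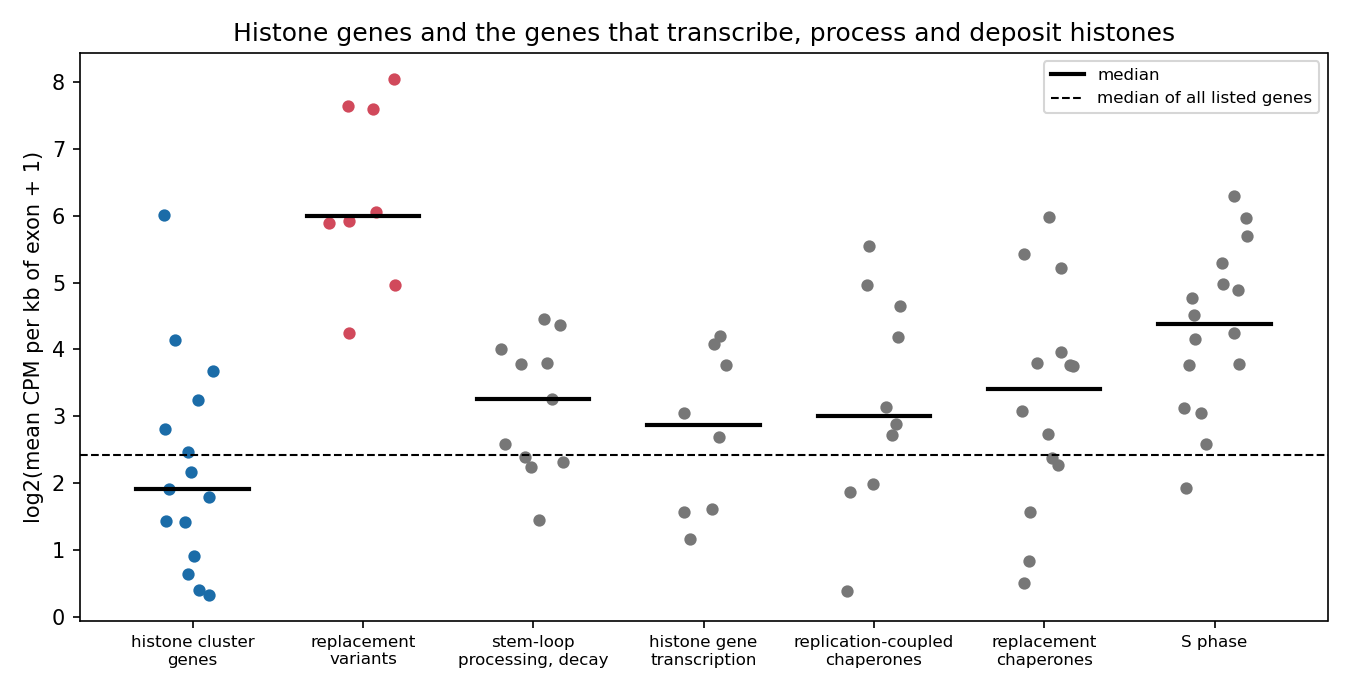
Level of the cluster genes, the replacement variants and the genes of 5 histone-related lists, as log2(mean CPM per kb of exon + 1), with medians and the median of all listed genes. The replacement variants have the highest median and the cluster genes the lowest, with S phase genes between them.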

How the data were processed

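The deposited values were CPM, reads per 1000000 assigned reads, made by the authors for each gene and library. Per the submitters' processing notes FastQC, STAR, featureCounts and edgeR were used, and mm10 and GRCh38 are the builds named; their versions and roles, the annotation, the use of strand and the choice of genes are not given in the sources used here. Libraries came from an mRNA kit, per the labels' protocols. Each file held 11463 entries, 44 of them repeats, which left 11419 genes. Every CPM was a whole multiple of 1 read within 0.01 reads (100% of values), so reads were recovered. For a gene at 0, the upper limit was taken as 3 reads, which came to 0.583 CPM (replicate 1), 0.0747 CPM (replicate 2) and 0.0798 CPM (replicate 3); this covers counting error only. At 10 CPM a gene had 51.5, 401 and 376 reads.

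limma 3.58.1 in R 4.3.3 fitted an intercept to log2(CPM + 1), with a pseudocount of 1, against log2 of 10 CPM plus the pseudocount, two-sided, with trended empirical Bayes moderation. Genes with at least 10 reads entered (11123), with Benjamini-Hochberg adjustment over all of them. Fold differences on this scale understate those of low genes. edgeR 4.0.16 (the quasi-likelihood F formed from deviances, since its test needs more than 1 coefficient) and DESeq2 1.42.0 (Wald test of the intercept) ran on recovered reads as alternatives. The scripts were run on simulated data with less spread than these libraries, as a check that genes far from the level were called. No bound was set there on false calls, so the p-values were not tested by it. CPM per kb used GENCODE M21 exon lengths, found for 99.9% of listed genes. Each pair of libraries differed by more than counting error (chi-square per degree of freedom 35.4 to 83.6). This cannot tell separate mice from separate preparations of the same RNA. The biological coefficient of variation, as edgeR names it, was 0.326 and may hold technical spread.

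The members and lists were chosen with earlier results of these data known. All members may be named. In each list the named genes were at most the 4 highest of those above and the 3 lowest of those below. For processing and transcription, those not called were also named. Protein sequences were not used here.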

Additional observations from a re-analysis of the deposited data

How the results depend on the processing

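No paired analysis was possible because there is 1 group. Of 288 member values under alternatives, 267 kept their direction and side of the threshold, 14 lost the call, 5 gained one and 2 reversed, Hist1h4i (-0.71) and Hist1h2bc (-0.55), both not called at 10 CPM and below 20 CPM. Members below numbered 8 against 5 CPM, and 11 to 13 with 1 replicate left out, with 9 to 10 above. All listed genes per kb had 2894 above and 6975 below, and 1870 were below 5 CPM; leaving out 1 replicate gave 5884 to 6537 above and 2423 to 3109 below. The genes of the 5 lists per kb had 27 above and 26 below, with 10 below 20 CPM, and 1 below with no filter, 5 CPM, edgeR or DESeq2; leaving out 1 replicate gave 43 to 47 above and 1 to 2 below. The difference of class medians, -4.28, was -5.69 by coding length, -5.64 with no length correction and -4.54 to -4.01 with 1 replicate left out. The cluster share of reads, 0.0159%, was 0.0139% to 0.0170% with 1 replicate left out, and the replacement share, 0.196%, was 0.184% to 0.205%. Counting H2afx with the cluster genes gave 0.0524% and 0.160%. H2afx minus H2afz turned to -0.059 by coding length and -0.27 by longest transcript, lengths tried for the 7 pairs after seeing the data. Other single values reversed for Ccne2 (-0.43), Adgre1 (-0.50) and Rn7sk (0.0016) per kb, and for Srcap (0.32) against 5 CPM. The per kb and level changes follow from the changed yardstick; the cause of the others was not tested. Scaling by TMM or DESeq2 moved the libraries by -0.091 to 0.057 on the log2 scale. At 10 CPM replicate 1 rests on 51.5 reads, so low genes are least precise there.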
